A study of Mus musculus with 20 samples.

Results

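The comparison set celastrol against its vehicle in the hypothalamus of obese mice at the later times, 1 day and 4 days, pooled. Its members are 13 of the 20 arrays of the series, 7 with celastrol and 6 with vehicle, chosen by the treatment and the time in the sample titles, and the 7 arrays of 6 h were left out. All mice were male C57BL/6J, made obese by 16 weeks on a 45% fat diet from the age of 4 weeks, so vehicle mice carried the same diet as treated mice. Celastrol was injected into the peritoneum in dimethyl sulfoxide (DMSO), and vehicle mice received DMSO at 25 µl per day. The 1 day groups held 4 celastrol and 3 vehicle arrays, and the 4 day groups 3 and 3. The labels print a dose of 250 µg/kg beside the 6 h time alone, and give no food intake, body weight or corticosterone for these mice. Each value is the log2 intensity of 1 probe set, the brightest of its gene, on an Affymetrix Mouse Gene 1.0 ST array, and a difference is celastrol minus vehicle on the log2 scale with its standard error, time being held as an additive term.

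Celastrol is a pentacyclic triterpenoid from the roots of the thunder god vine, known for lowering food intake and body weight in obese mice and described as a sensitizer to leptin, the satiety hormone that acts on the hypothalamus. In cells it is known to inhibit NF-kB signalling and to induce heat shock proteins. The hypothalamus also drives the stress axis, which ends in glucocorticoids. These hormones bind a nuclear receptor that switches on genes such as Sgk1 and Fkbp5 in neurons, glia and vessels.

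Array medians lay between 8.60 and 8.65, and vehicle replicate 3 at 1 day stood apart on the leading component of the residuals (a score of 10.6 against -6.71 to 5.76 on the others). All 16 transcription factors and peptides listed as marking hypothalamic nuclei were above 7.04, the log2 level below which a gene counted as dim and was not tested, and their mean over the list lay between 9.04 and 9.15 on all 13 arrays. In bulk tissue, fewer cells of a type and less RNA per cell cannot be told apart.

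Celastrol arrays of the later times had higher levels of glucocorticoid-induced genes and of some acute phase and inflammatory genes, and lower levels of some oligodendrocyte genes, of the connexins Gjc3 and Gjb1 and of the transcription factor Pax6. Of 14129 genes tested, 154 passed the threshold (limma, Benjamini-Hochberg adjusted p under 0.05), or 1.09%. Of these, 109 were higher with celastrol (0.771% of the genes tested) and 45 were lower (0.318%). The changes were small, with a median size of 0.27. Only 15 reached 1.5-fold, all of them higher, and 3 reached 2-fold as measured, namely Lcn2, Ch25h and Osmr. Ch25h and Lrg1, both counted among the 15, were tested only through their celastrol arrays, so their sizes are uncertain. An unadjusted p under 0.05 was reached by 12.9% of the genes tested. Passing or not, 55% of the genes tested had a pooled difference above 0. The split moved with the scaling of the arrays, to 96 higher and 70 lower with each array centred on its median and to 108 and 76 with the arrays quantile normalized again.

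All 154 genes differed in the same direction at both times, which the pooled fit favours. A count that does not rest on the fit asks for which genes no celastrol array overlapped the vehicle arrays of its own time, with the same direction at 1 day and at 4 days. It held for 246 genes, or 1.74%, of which 166 were higher and 80 lower. Among the 154 it held for 115. The arrays of 1 day fitted alone called 69 genes (0.488%), and the arrays of 4 days alone called 2 (0.0142%), Igfbp7 and Ch25h. Of these, Ch25h was tested only through its celastrol arrays. Of the 154 genes, 98 passed in neither time alone. The arrays of 4 days were not in the fit that called the 69 genes of 1 day. They did count, with all other arrays, in the choice of probe sets and in the filter on dim genes. At 4 days, 68 of the 69 differed in the same direction, against 61.0% of all genes. The exception was Fabp7. Of the 69, 46 had the same direction and an unadjusted p under 0.05 at 4 days, while 8.52% of all genes had such a p there in either direction.

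**Figure D1:**
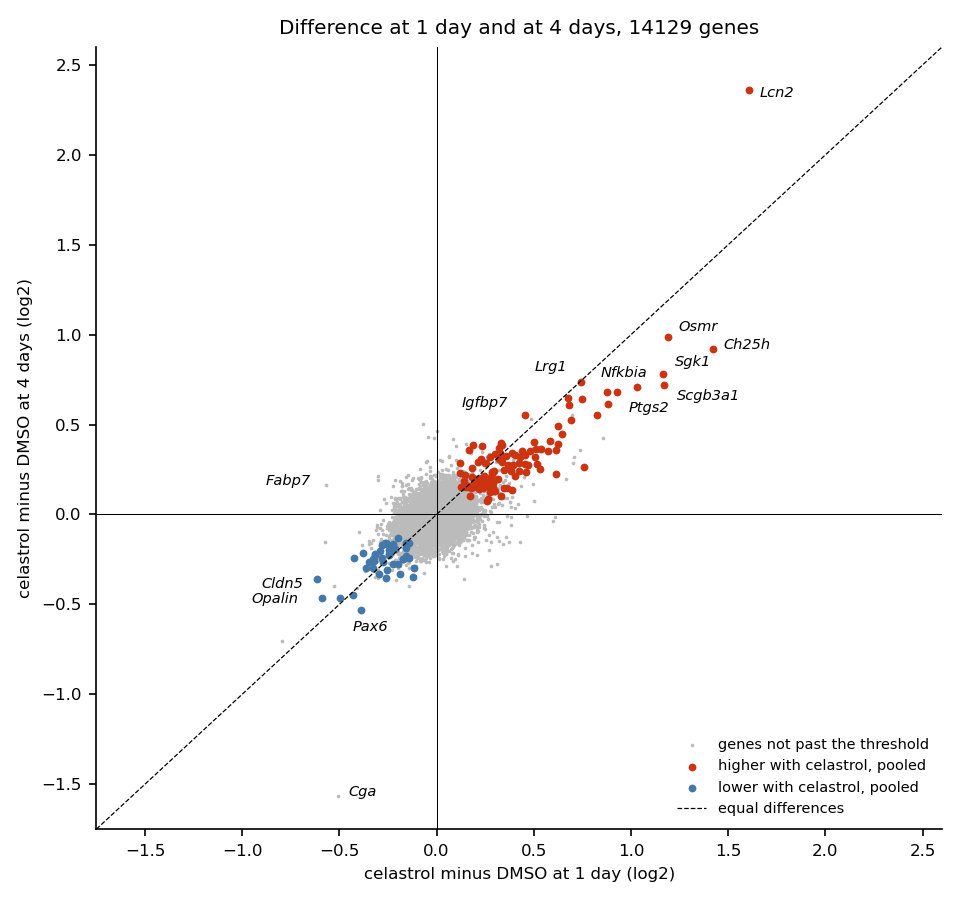
Celastrol minus vehicle (DMSO) on the log2 scale at 1 day (horizontal, 4 against 3 arrays) and at 4 days (vertical, 3 against 3 arrays), 1 point per gene. The 109 genes higher in the pooled fit (red) and the 45 lower (blue) lie in the quadrants of agreeing sign, and Fabp7 lies at -0.57 at 1 day and 0.17 at 4 days.

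The smallest p belonged to Igfbp7, a secreted protein of vessel walls that binds insulin-like growth factors. It is named here, as are Podxl and Tgm2 below, after its value was seen. On vehicle arrays it read 11.30, 11.23 and 11.24 at 1 day and 11.10, 11.19 and 11.14 at 4 days. On celastrol arrays it read 11.65, 11.75, 11.71 and 11.72 at 1 day and 11.75, 11.61 and 11.74 at 4 days. Every celastrol array was above every vehicle array of the later times, and the pooled difference was 0.50 ± 0.034 (limma adjusted p = 5.18e-06). Acer2, an alkaline ceramidase of the Golgi that turns ceramide into sphingosine, read 8.50, 8.63 and 8.65 with vehicle and 9.37, 9.52, 9.44 and 9.56 with celastrol at 1 day. At 4 days it read 8.53, 8.43 and 8.57 with vehicle and 8.92, 9.28 and 9.37 with celastrol. The groups did not overlap, celastrol replicate 1 at 4 days lay nearest to vehicle, and the difference was 0.78 ± 0.067, or 1.72-fold (limma adjusted p = 5.34e-05). Among 29 enzymes and receptors of ceramide and sphingolipid metabolism Acer2 alone passed, and the median of that list was 0.0023, or -0.0116 with each array centred on its median.

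Podxl, a sialomucin of endothelium and neurons, ranged from 9.64 to 9.80 on the 6 vehicle arrays and from 10.02 to 10.33 on the 7 celastrol arrays (difference 0.46 ± 0.049, limma adjusted p = 0.000339). Tgm2, a tissue transglutaminase that crosslinks proteins, ranged from 8.63 to 8.70 with vehicle and from 8.98 to 9.39 with celastrol (0.55 ± 0.060, limma adjusted p = 0.000339). In neither gene did the treatments overlap. Scgb3a1, a small secreted secretoglobin, had a median of 7.85 with vehicle (7.57 to 8.16) and of 9.10 with celastrol (8.02 to 9.42), and it rose by 0.96 ± 0.12 (limma adjusted p = 0.000638). Its lowest celastrol value was replicate 1 at 4 days, which fell among vehicle arrays of 1 day but above those of 4 days.

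**Figure D2:**
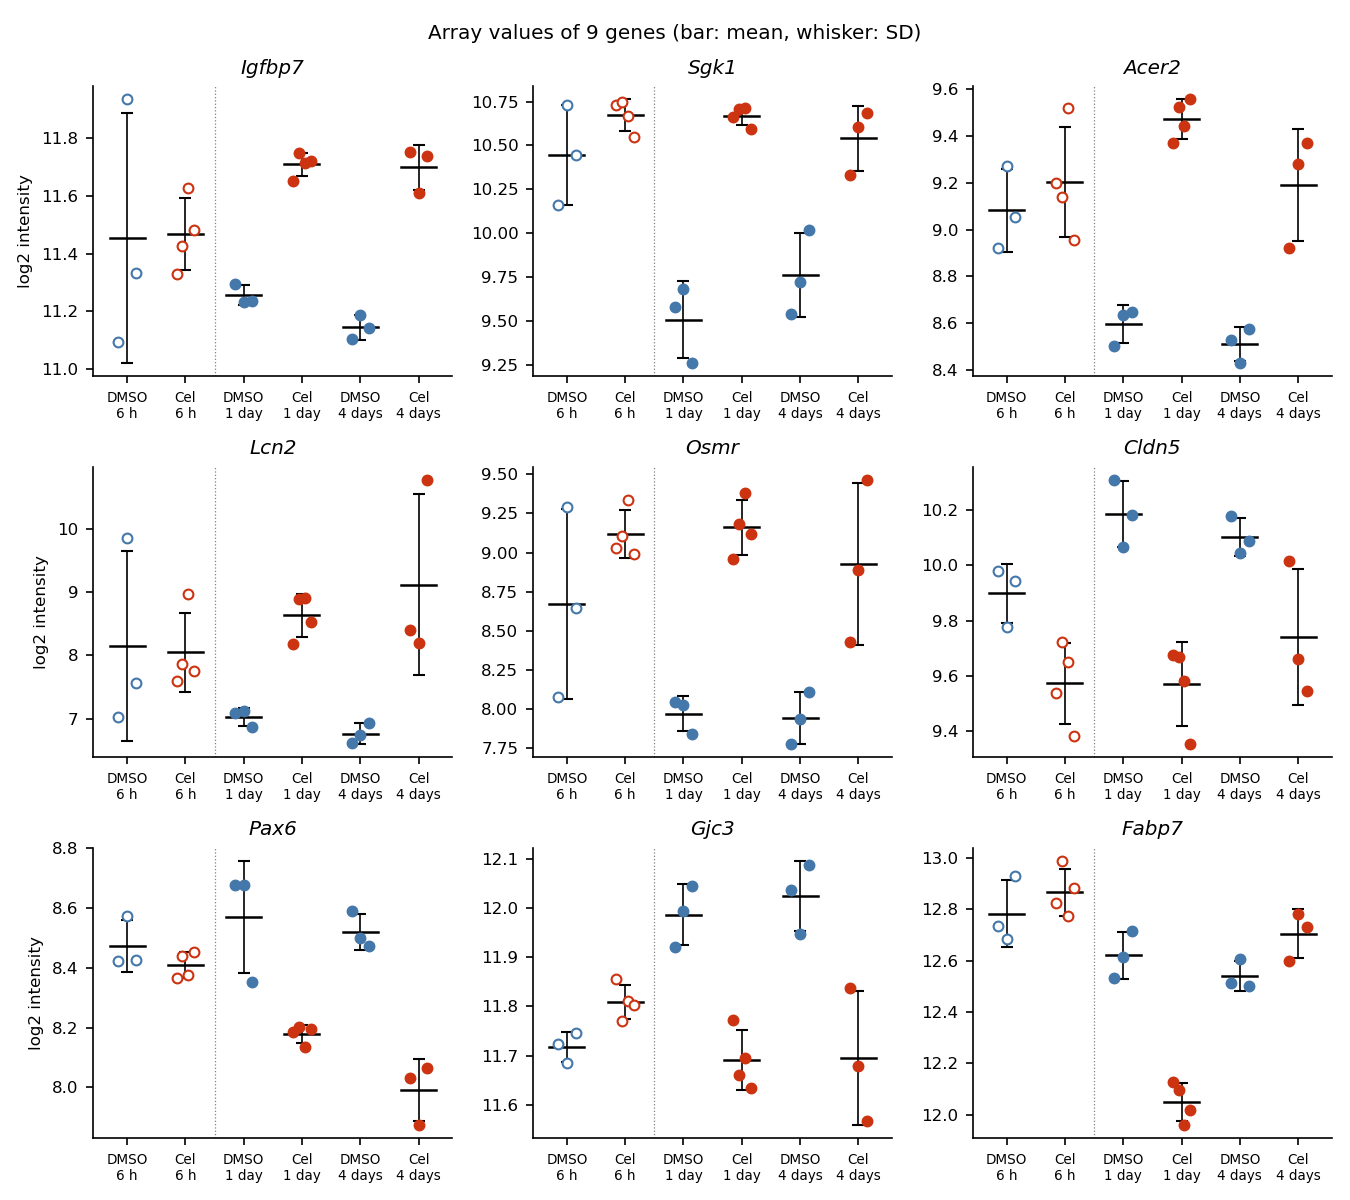
Log2 intensity of 9 genes on each of the 20 arrays, by treatment and time, with filled points for the 13 arrays compared here, open points for the 6 h arrays, and bars and whiskers for the group mean and SD. Igfbp7, Sgk1, Acer2, Lcn2 and Osmr are higher, and Cldn5, Pax6 and Gjc3 lower, on celastrol arrays of both later times, while Fabp7 is lower at 1 day alone.

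The group with the most genes past the threshold was that of glucocorticoid-induced genes. All 27 tested members were higher with celastrol, 14 passed, and their median difference was 0.41, against 0.0067 over all genes tested. Its mean over members lay between 9.815 and 9.997 on the 6 vehicle arrays and between 10 and 10.58 on the 7 celastrol arrays. By the median over members, celastrol replicate 1 at 4 days stood 0.0497 above the vehicle mean of its time, where the other 6 celastrol arrays stood 0.239 to 0.612 above theirs.

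Sgk1, a kinase that glucocorticoids induce and that regulates ion channels, had the largest rise of them. At 1 day it read 9.58, 9.68 and 9.26 with vehicle and 10.66, 10.71, 10.72 and 10.60 with celastrol. At 4 days it read 9.54, 9.72 and 10.02 with vehicle and 10.33, 10.60 and 10.69 with celastrol. The groups did not overlap, and Sgk1 rose by 0.99 ± 0.095, or 1.98-fold (limma adjusted p = 0.00018). Sgk3, a relative that acts at endosomes and is no member of the list, ranged from 8.33 to 8.51 with vehicle and from 8.58 to 9.75 with celastrol, and its rise of 0.70 ± 0.15 (limma adjusted p = 0.0373) lost its call without any 1 of 10 of the 13 arrays (up to 0.108).

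Fkbp5 encodes a co-chaperone that lowers the receptor's affinity for its hormone. It read 8.66, 8.72 and 8.73 with vehicle and 9.46, 9.62, 9.77 and 9.49 with celastrol at 1 day, and 8.61, 8.85 and 8.78 with vehicle and 8.93, 9.18 and 9.99 with celastrol at 4 days. The celastrol arrays of 4 days were spread widely and still lay above vehicle, and the rise was 0.76 ± 0.13, or 1.69-fold (limma adjusted p = 0.0109). Nfkbia, which keeps NF-kB out of the nucleus, read 9.10, 9.12 and 8.92 with vehicle and 9.84, 9.997, 10.18 and 9.88 with celastrol at 1 day. Its 4 day values were 9.12, 9.14 and 9.38 with vehicle and 9.56, 9.87 and 10.26 with celastrol, and it rose by 0.81 ± 0.097 (limma adjusted p = 0.000578). As in Fkbp5, celastrol replicate 3 at 4 days was the highest array.

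Further members that rose were Arrdc2, an arrestin-domain protein (0.66 ± 0.067, limma adjusted p = 0.000233), Ddit4, which restrains the mTOR kinase (0.65 ± 0.072, 0.000339), and Bcl6, a transcriptional repressor (0.42 ± 0.058, 0.00241). Bcl6 and the other genes below it here, except Zbtb16, were named after their values were seen. Per1, a clock gene with a glucocorticoid response, rose by 0.26 ± 0.037 (limma adjusted p = 0.00255), whereas none of 17 other clock genes passed. Hif3a, an inhibitory relative of the hypoxia factors, rose by 0.56 ± 0.092 (limma adjusted p = 0.00821), and Klf9, a factor of the Krüppel-like family, by 0.30 ± 0.054 (limma adjusted p = 0.0143). Errfi1, a feedback inhibitor of the EGF receptor, rose by 0.40 ± 0.076 (limma adjusted p = 0.02) but did not pass without vehicle replicate 1 or 2 at 1 day (up to 0.0585). Mt1, a metallothionein, rose by 0.27 ± 0.053 (limma adjusted p = 0.0262), a call lost without vehicle replicate 1 at 1 day, vehicle replicate 1 or 3 at 4 days, celastrol replicate 1 at 1 day or celastrol replicate 2 at 4 days (up to 0.0735). Zbtb16, a zinc finger repressor, rose by 0.70 ± 0.14 (limma adjusted p = 0.0252). That call ended without vehicle replicate 1 at 1 day, vehicle replicate 1 at 4 days or celastrol replicate 3 or 4 at 1 day, with an adjusted p of up to 0.073. Tsc22d3, known as GILZ, rose by 0.43 ± 0.096 (limma adjusted p = 0.0419) and Txnip, a brake on glucose uptake, by 0.50 ± 0.11 (limma adjusted p = 0.0393). Both calls ended without any 1 of 10 or more of the arrays (up to 0.121 and 0.116). Plin4 (0.66 ± 0.17, limma adjusted p = 0.091) and Pdk4 (0.56 ± 0.13, 0.0548), both of fat metabolism, did not pass despite large differences, and neither did Sult1a1 (0.51 ± 0.12, 0.0517).

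The receptor and the peptides of the stress axis did not share this pattern. None of 12 tested members passed, 5 were higher, and their median was -0.015. Nr3c1, the glucocorticoid receptor itself, differed by -0.05 ± 0.035 (limma adjusted p = 0.631).

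**Figure D3:**
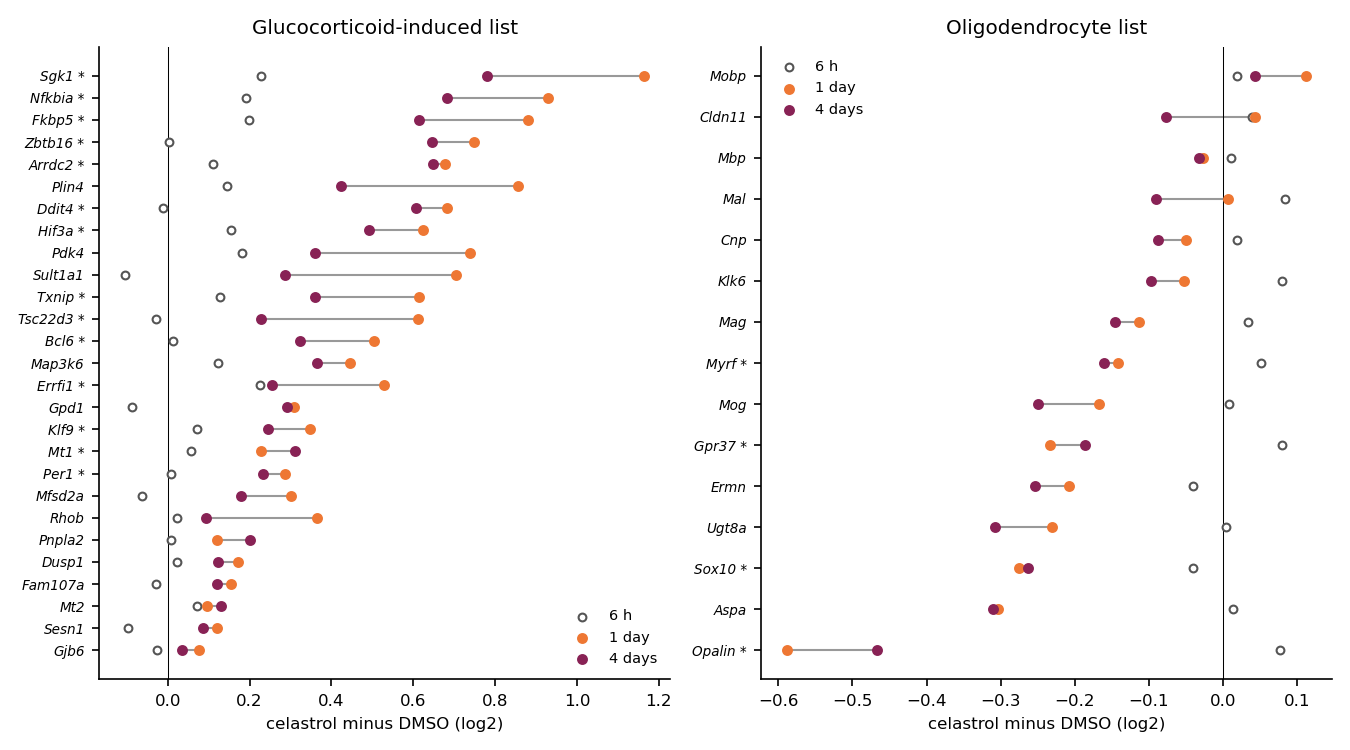
Celastrol minus vehicle on the log2 scale for each tested member of the glucocorticoid-induced list (left, 27 genes) and the oligodendrocyte list (right, 15 genes) at 6 h (open), 1 day (orange) and 4 days (purple), with asterisks for genes past the threshold in the pooled fit. Members of the left list lie above 0 at both later times, from 0.035 to 1.16, and Sox10 and Opalin lie below 0 at both in the right list.

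Promoters of genes that moved together are shown for the motifs they hold. Windows from 250 bases before to 50 bases after an annotated start (RefSeq, GRCm38.p6) were found for 121 of the 154 genes, 86 higher and 35 lower, and for 11309 of the genes tested. They were searched on both strands. The palindromic glucocorticoid response element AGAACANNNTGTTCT occurs in 3 of 32851 windows (0.00913%), and Sgk1 is the only tested gene with a match, in 1 of its 6 windows. The window of Sgk1 at chr10:21993640-21993939, plus strand, has it 189 bases before the start and an E-box (CACGTG) 246 bases before it, both in capitals. The window of Bcl6 at chr16:23981234-23981533, minus strand, has the STAT motif TTCCNGGAA in capitals 168 and 88 bases before the start. The window of Nfkbia at chr12:55492598-55492897, minus strand, has a kappa B motif in capitals 29 bases before the start.
Sgk1: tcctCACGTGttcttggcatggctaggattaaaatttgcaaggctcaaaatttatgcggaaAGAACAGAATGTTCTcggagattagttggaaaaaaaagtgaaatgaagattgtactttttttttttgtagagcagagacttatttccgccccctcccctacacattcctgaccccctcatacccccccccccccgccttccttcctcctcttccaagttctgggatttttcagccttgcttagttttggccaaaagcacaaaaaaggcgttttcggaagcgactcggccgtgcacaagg
Bcl6: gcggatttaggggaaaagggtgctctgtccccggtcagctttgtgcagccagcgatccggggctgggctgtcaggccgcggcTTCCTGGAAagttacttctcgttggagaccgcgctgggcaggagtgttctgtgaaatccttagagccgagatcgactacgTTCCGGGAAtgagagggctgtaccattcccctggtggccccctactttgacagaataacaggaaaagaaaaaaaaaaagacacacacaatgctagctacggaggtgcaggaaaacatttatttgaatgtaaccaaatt
Nfkbia: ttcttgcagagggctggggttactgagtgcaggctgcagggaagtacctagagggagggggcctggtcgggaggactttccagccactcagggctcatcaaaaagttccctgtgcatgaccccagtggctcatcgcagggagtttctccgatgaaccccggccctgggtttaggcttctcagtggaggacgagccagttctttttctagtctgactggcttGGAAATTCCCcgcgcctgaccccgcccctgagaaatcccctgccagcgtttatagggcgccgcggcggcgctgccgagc
The E-box is in windows of 15 of the 86 higher genes (17.4%), 3 of the 35 lower genes (8.57%) and 11.2% of the genes tested, and in 7.15% of all windows. The STAT motif is in windows of 5 higher genes (5.81%), no lower gene and 1.51% of the genes tested (1.15% of all windows). The cAMP response element TGACGTCA is in windows of 3 higher and 2 lower genes, 3.32% of the genes tested and 1.79% of all windows. The kappa B motif is in windows of 14 higher (16.3%) and 7 lower genes (20%), 12.4% of the genes tested and 8.46% of all windows. Genes with more windows have more chances to match, and a match is letters in a window, not a bound site.

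Of the acute phase genes and the gp130 receptors, which carry interleukin-6 and leukaemia inhibitory factor signals to STAT3, 11 of 15 tested members were higher, 4 passed and the median was 0.13. Osmr, the receptor subunit for oncostatin M, read 8.05, 8.03 and 7.84 with vehicle and 8.96, 9.18, 9.38 and 9.12 with celastrol at 1 day. At 4 days it read 7.78, 7.94 and 8.11 with vehicle and 8.43, 8.89 and 9.46 with celastrol. The groups did not overlap, and Osmr rose by 1.09 ± 0.13, or 2.14-fold (limma adjusted p = 0.000504). Lcn2, a secreted iron-siderophore binder, had the largest measured rise of all genes tested, 1.96 ± 0.33 or 3.89-fold (limma adjusted p = 0.00891). It read 7.09, 7.12 and 6.86 with vehicle and 8.18, 8.90, 8.91 and 8.53 with celastrol at 1 day, and 6.61, 6.74 and 6.93 with vehicle and 8.40, 8.19 and 10.77 with celastrol at 4 days. Celastrol replicate 3 at 4 days stood far above the rest, and the highest adjusted p without any 1 array was 0.0293. Of its 6 vehicle arrays 4 lay below the dim level of 7.04, so the fold is uncertain.

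Lrg1, a secreted leucine-rich glycoprotein of the acute phase, rose by 0.74 ± 0.11 (limma adjusted p = 0.00332), with 4 of its 6 vehicle arrays below the dim level. Its vehicle mean over all times lay below that level too, so that it was tested through its celastrol arrays and its size is uncertain. Serpina3n, a protease inhibitor of reactive astrocytes, ranged from 11.93 to 12.16 with vehicle and from 12.22 to 12.48 with celastrol, without overlap, and rose by 0.31 ± 0.035 (limma adjusted p = 0.000339). Socs3, the feedback inhibitor of leptin and gp130 receptors, differed by 0.13 ± 0.044 (limma adjusted p = 0.214) and did not pass.

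Among NF-kB subunits, targets and cytokines, 2 of 20 tested members passed, both higher, and 12 were higher with a median of 0.041. Nfkbia, the NF-kB inhibitor that rose, was counted with the glucocorticoid-induced genes and not in this list. Ch25h, which makes 25-hydroxycholesterol, read 6.94, 6.55 and 6.58 with vehicle and 8.18, 8.67, 7.95 and 7.66 with celastrol at 1 day, and 6.65, 6.51 and 6.62 with vehicle and 7.62, 7.53 and 7.39 with celastrol at 4 days. At these later times all vehicle arrays lay below the dim level and all celastrol arrays above it. The difference as measured was 1.19 ± 0.14 (limma adjusted p = 0.000504). Ch25h was kept among the genes tested through its celastrol arrays, since its vehicle mean lay below the dim level, so no fold is given for it. Ptgs2, the inducible cyclooxygenase, ranged from 7.46 to 7.998 with vehicle and from 8.24 to 8.88 with celastrol and rose by 0.88 ± 0.11 (limma adjusted p = 0.000994). The 13 tested members of the interleukin-1 family, with 9 higher and a median of 0.020, held no gene past the threshold. Il1r1 and Agrp were not tested. Ier3, an early response gene that NF-kB and stress induce, was the only one of 19 immediate early genes to pass (0.32 ± 0.053, limma adjusted p = 0.00934).

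Several genes of blood vessels moved in opposite directions. Slc2a1, the glucose transporter of brain endothelium, read 12.26, 12.34 and 12.21 with vehicle and 12.65, 12.74, 12.91 and 12.69 with celastrol at 1 day, and 12.24, 12.32 and 12.41 with vehicle and 12.47, 12.66 and 12.89 with celastrol at 4 days. It rose without overlap, by 0.42 ± 0.064 (limma adjusted p = 0.00424). Cldn5, a claudin that seals the blood-brain barrier, read 10.31, 10.07 and 10.18 with vehicle and 9.68, 9.67, 9.58 and 9.35 with celastrol at 1 day. At 4 days it read 10.18, 10.04 and 10.09 with vehicle and 10.02, 9.66 and 9.55 with celastrol. It was lower on every celastrol array than on the vehicle arrays of its time, though celastrol replicate 1 at 4 days was close to them, and it fell by 0.50 ± 0.080, 1.41-fold lower (limma adjusted p = 0.00716). Esam, an endothelial adhesion molecule, rose by 0.26 ± 0.046 (limma adjusted p = 0.0126). Over the 15 tested endothelial markers, 2 passed as higher and 1 as lower, 6 were higher and the median was -0.0064. The list mean lay between 9.45 and 9.55 with vehicle and between 9.32 and 9.62 with celastrol. Slc2a1 and Esam were named after their values were seen, as was Fn1, fibronectin, which rose by 0.44 ± 0.089 (limma adjusted p = 0.0268). The Fn1 call ended without any 1 of vehicle replicates 1, 2 and 3 at 1 day, vehicle replicates 1 and 3 at 4 days or celastrol replicate 3 at 4 days (up to 0.0824). Its highest array, celastrol replicate 2 at 1 day at 11.29, stood apart from the other 3 of its group (10.62 to 10.72). The mean of 9 meningeal fibroblast markers ranged from 8.39 to 9.35 over the celastrol arrays of 1 day, from 8.41 to 8.46 over those of 4 days and from 8.41 to 8.65 with vehicle, and their part in Fn1 was not tested.

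Genes of oligodendrocytes were mostly lower. Of 15 tested markers of these myelin-forming cells, 14 were lower, 4 passed and the median was -0.15. The list mean lay between 10.70 and 10.85 with vehicle and between 10.52 and 10.74 with celastrol. Opalin, a membrane protein of myelinating oligodendrocytes, read 9.14, 9.09 and 9.42 with vehicle and 8.85, 8.68, 8.66 and 8.33 with celastrol at 1 day, and 9.35, 9.27 and 9.28 with vehicle and 8.99, 9.09 and 8.42 with celastrol at 4 days. It fell by 0.53 ± 0.10 (limma adjusted p = 0.0223), without overlap within a time, and that call ended without vehicle replicate 1 at 1 day or at 4 days (up to 0.0616). Sox10, the transcription factor of the lineage, fell by 0.27 ± 0.046 (limma adjusted p = 0.0113) and passed in all 13 fits without 1 array, with a highest adjusted p of 0.0447. Gpr37 (fell by 0.21 ± 0.044, limma adjusted p = 0.0322) and Myrf, a regulator of myelin genes (fell by 0.15 ± 0.033, limma adjusted p = 0.0393), passed, but their calls ended without any 1 of 9 or more arrays, at up to 0.0992 and 0.11.

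Mbp, the myelin basic protein, did not pass and differed by -0.030 ± 0.028 (limma adjusted p = 0.715), and Mobp was the member that was higher (0.080 ± 0.038, 0.39). Ugt8a (-0.27 ± 0.063, limma adjusted p = 0.0599) and Aspa (-0.31 ± 0.090, limma adjusted p = 0.134), enzymes that serve myelin lipid synthesis, did not pass. Sox10, Gpr37, Myrf, Aspa, Mbp and Mobp were named after their values were seen. None of 10 markers of oligodendrocyte precursors passed (median -0.043), nor any of 14 astrocyte markers (median -0.0071) or 17 neuronal markers (median -0.020). Nkx6-2, a homeobox factor known in oligodendrocytes, and Car2, a carbonic anhydrase abundant in them, were among the 15 largest falls (fell by 0.34 ± 0.065 and by 0.30 ± 0.063, limma adjusted p = 0.0217 and 0.0328). The Car2 call ended without any 1 of 9 arrays (up to 0.0846), and the Nkx6-2 call without vehicle replicate 1 or 2 at 1 day, vehicle replicate 1 at 4 days or celastrol replicate 3 at 4 days (up to 0.0629).

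In a list of gap junction subunits, mostly glial connexins, 8 of 8 tested members were lower, 2 passed and the median was -0.074. Gjc3, connexin 29, read 11.92, 11.99 and 12.04 with vehicle and 11.77, 11.66, 11.70 and 11.63 with celastrol at 1 day. At 4 days it read 12.04, 11.95 and 12.09 with vehicle and 11.84, 11.68 and 11.57 with celastrol. Without overlap, it fell by 0.31 ± 0.044, 1.24-fold lower (limma adjusted p = 0.00255). Gjb1, connexin 32, also of oligodendrocytes, ranged from 7.90 to 8.05 with vehicle and from 7.62 to 7.79 with celastrol and fell by 0.28 ± 0.036 (limma adjusted p = 0.000994). Gja1, the astrocyte connexin 43, differed by -0.13 ± 0.035 (limma adjusted p = 0.113).

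Of 25 genes of radial glia and neural progenitors, 2 passed, both lower, 7 were higher and the median was -0.037. Pax6, a transcription factor of progenitors and some neurons, read 8.68, 8.68 and 8.35 with vehicle and 8.18, 8.20, 8.14 and 8.19 with celastrol at 1 day, and 8.59, 8.50 and 8.47 with vehicle and 8.03, 7.87 and 8.07 with celastrol at 4 days. It did not overlap between treatments and fell by 0.46 ± 0.055, 1.37-fold lower (limma adjusted p = 0.000588). Insc, an adaptor of asymmetric cell division, ranged from 7.52 to 7.66 with vehicle and from 7.24 to 7.42 with celastrol and fell by 0.26 ± 0.035 (limma adjusted p = 0.00162).

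The other large falls were of mixed kinds. Trim59, a ubiquitin ligase, fell by 0.48 ± 0.071 (limma adjusted p = 0.00332) and Slc40a1, the iron exporter ferroportin, by 0.44 ± 0.076 (limma adjusted p = 0.0113), the only one of 11 iron transport genes to pass. Fzd6, a Wnt receptor, fell by 0.28 ± 0.045 (limma adjusted p = 0.00758) and Ccdc190, a gene of little known function, by 0.31 ± 0.051 (limma adjusted p = 0.00758). Gpr84, a receptor of myeloid cells for medium-chain fatty acids, fell by 0.29 ± 0.050 (limma adjusted p = 0.0104). P2ry13 and P2ry12, purine receptors of resting microglia, fell by 0.31 ± 0.066 and by 0.25 ± 0.056 (limma adjusted p = 0.0369 and 0.046), calls that ended without any 1 of 9 or more arrays (up to 0.108 and 0.117). P2ry12, named after its value was seen, was the only one of 11 microglial markers to pass, with 5 of them higher and a list median of -0.027. Sytl2 and Cdc42ep2, of vesicle transport and the cytoskeleton, fell by 0.33 ± 0.070 and by 0.29 ± 0.064 (limma adjusted p = 0.0363 and 0.0419), and each call ended without any 1 of 11 arrays (up to 0.0863 and 0.128).

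**Figure D4:**
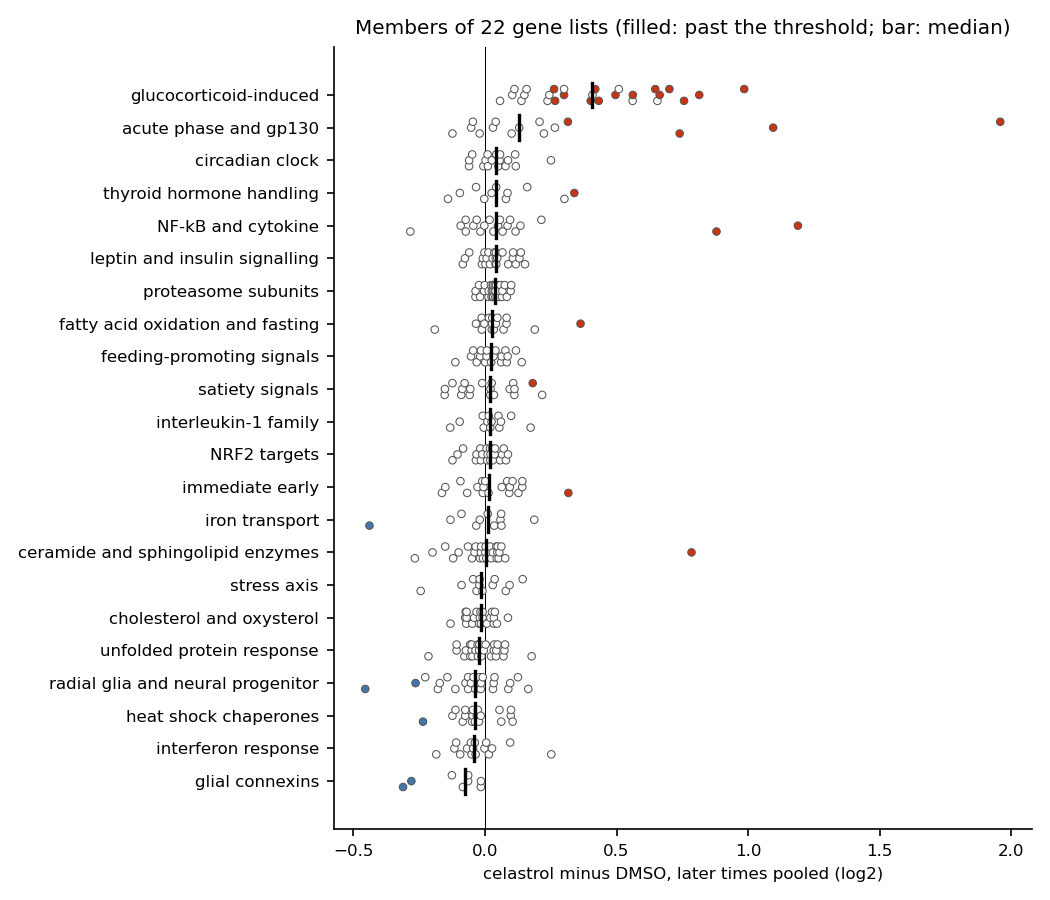
Pooled celastrol minus vehicle difference on the log2 scale for each tested member of 22 gene lists, ordered by list median (bar), with filled points for genes past the threshold, red higher and blue lower. The glucocorticoid-induced list has 14 of 27 members past the threshold, all higher, and the glial connexin list lies below 0 throughout.

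Genes of leptin and insulin signalling shifted little. None of 25 tested members passed, 19 were higher and the median was 0.040. Lepr, the leptin receptor, ranged from 7.84 to 8.17 with vehicle and from 8.03 to 8.25 with celastrol, overlapping, and differed by 0.15 ± 0.047 (limma adjusted p = 0.168). Ptpn1, the phosphatase that dampens leptin and insulin receptors, differed by 0.14 ± 0.032 (limma adjusted p = 0.0558) and Stat3, which relays the leptin signal, by 0.12 ± 0.033 (limma adjusted p = 0.123).

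Of 19 satiety genes, Mc4r, the melanocortin receptor of satiety pathways, was the only one to pass, with a rise of 0.18 ± 0.040 (limma adjusted p = 0.041), 0.26 at 1 day and 0.09 at 4 days. It did not pass with centred arrays (0.062), with arrays quantile normalized again (0.0667) or without any 1 of 10 arrays (up to 0.113). Pomc, the precursor of melanocortin peptides, differed by -0.15 ± 0.087 (limma adjusted p = 0.492), and Trh, thyrotropin-releasing hormone, by 0.22 ± 0.062 (limma adjusted p = 0.121). None of 19 feeding-promoting genes passed. Npy differed by 0.12 ± 0.057 (limma adjusted p = 0.41) and Gal, galanin, by 0.14 ± 0.044 (limma adjusted p = 0.177).

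The chaperone, antioxidant and proteasome lists, which hold genes that celastrol is known to affect in cultured cells, held 1 gene past the threshold among them. It was Cryab, a small heat shock protein abundant in glia, and it was lower (fell by 0.24 ± 0.045, limma adjusted p = 0.0217, ended without vehicle replicate 1 or 2 at 1 day at up to 0.061). Of 19 heat shock chaperones 5 were higher (median -0.039), of 28 genes of the unfolded protein response 11 (median -0.022), of 23 NRF2 targets 15 (median 0.019) and of 33 proteasome subunits 27 (median 0.036). Over all genes tested, 55% were higher and 1.09% passed. A count of 1 in lists of these sizes is near that share. Hspa5, the main chaperone of the endoplasmic reticulum, differed by -0.05 ± 0.038 (limma adjusted p = 0.609) and Hmox1, haem oxygenase, by 0.0082 ± 0.050 (limma adjusted p = 0.969). None of 23 cholesterol genes or 16 interferon response genes passed.

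Cyp4f15, a fatty acid and leukotriene hydroxylase, was the only one of 17 genes of fatty acid oxidation and fasting to pass. It read 9.14, 9.20 and 9.28 with vehicle and 9.57, 9.56, 9.46 and 9.57 with celastrol at 1 day, and 9.11, 9.22 and 9.14 with vehicle and 9.58, 9.43 and 9.65 with celastrol at 4 days. It rose without overlap by 0.36 ± 0.040 (limma adjusted p = 0.000339). Klf15, a glucocorticoid-responsive factor listed here with thyroid hormone genes, rose by 0.34 ± 0.069 (limma adjusted p = 0.0293) but missed the threshold without any 1 of 8 arrays (up to 0.0752). Gpr6, an orphan receptor best known from striatal neurons and named after its value was seen, was the only one of 13 markers of cortex, hippocampus and striatum to pass (0.52 ± 0.075, limma adjusted p = 0.00309), beside a list median of -0.010. Cyyr1, a membrane protein of little known function, rose by 0.61 ± 0.098 (limma adjusted p = 0.00688).

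Markers of neighbouring tissue were read on the same arrays. All 7 tested pituitary markers were lower with celastrol, with a median of -0.13 and none past the threshold, and their mean ranged from 8.65 to 9.19 on vehicle and from 8.49 to 9.06 on celastrol arrays. The largest difference among them was that of Cga, the shared subunit of pituitary glycoprotein hormones, at -1.002 (limma adjusted p = 0.563, named after its value was seen). Of 8 choroid plexus markers 3 were higher (median -0.11), of 13 thalamus markers 5 (median -0.020), of 8 muscle markers 2 (median -0.037), of 9 blood leukocyte markers 5 (median 0.035) and of 3 erythrocyte markers 1 (median -0.021). Of 10 mural cell markers 7 were higher (median 0.047), of 12 ependymal and tanycyte markers 10 (median 0.064) and of 9 meningeal fibroblast markers 5 (median 0.0086). None of these passed.

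The size of the difference was then compared between the times. Of the 154 genes, 113 differed more at 1 day than at 4 days, with medians of 0.333 and 0.278 for the 109 higher genes and of -0.253 and -0.24 for the 45 lower ones. A test of the change between the times passed for 1 gene of 14129 (0.00708%), and for none of the 154. That gene was Fabp7, a lipid carrier of astrocytes and progenitors, which the pooled fit does not call (-0.23 ± 0.10, limma adjusted p = 0.376). At 1 day it read 12.53, 12.61 and 12.71 with vehicle and 12.13, 12.09, 11.96 and 12.02 with celastrol, and at 4 days 12.51, 12.61 and 12.50 with vehicle and 12.60, 12.78 and 12.73 with celastrol. It was lower on all 4 celastrol arrays of 1 day and not at 4 days, and the 2 differences differed by 0.74 ± 0.087 (limma adjusted p = 0.0119). The call ended without vehicle replicate 2 at 1 day, vehicle replicate 1 or 3 at 4 days, or celastrol replicate 2 or 3 at 4 days, with an adjusted p of up to 0.0768. No other gene passed, among them Csf3r, the neutrophil colony-stimulating factor receptor (change of 0.35 ± 0.065, limma adjusted p = 0.84), Ccl7, a chemokine (0.30 ± 0.061, 0.999), and Cyp7b1, an oxysterol hydroxylase (-0.34 ± 0.079, 0.999). The median standard error of such a change was 0.0838, against 0.0417 for a pooled difference.

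The 7 arrays of 6 h, 4 with celastrol and 3 with vehicle, share no array with this comparison. No gene passed at 6 h by limma, where 1067 genes had an unadjusted p under 0.05. The 109 higher genes had a median difference of 0.038 at 6 h and 78 of them were above 0, where 41.7% of all genes were. For the 45 lower genes the median was -0.057 and 28 were below 0. That share was close to that of all genes tested, whose median was -0.0147 at 6 h. Levels at 6 h overlapped those of later celastrol arrays in several genes and in the lists given below. On vehicle arrays of 6 h, Acer2 (8.92 to 9.27), Nfkbia (9.56 to 9.90) and Gjc3 (11.685 to 11.745) lay beyond all 6 later vehicle arrays, on the celastrol side. Igfbp7 reached 11.93 on vehicle replicate 2 at 6 h, above every later celastrol array. Pax6 (8.42 to 8.57) instead lay within the range of later vehicle arrays. Sgk1 read 10.16, 10.73 and 10.45 with vehicle and 10.73, 10.75, 10.67 and 10.55 with celastrol at 6 h, so that both treatments lay above all 6 later vehicle arrays. The mean of the glucocorticoid-induced list lay between 10.08 and 10.52 with vehicle and between 10.24 and 10.39 with celastrol at 6 h, above the 9.815 to 9.997 of later vehicle arrays in both treatments. The mean of the oligodendrocyte list lay between 10.60 and 10.74 on vehicle arrays at 6 h, where later vehicle arrays lay between 10.70 and 10.85 and later celastrol arrays between 10.52 and 10.74. The mean of the connexin list lay between 9.104 and 9.141 on vehicle arrays at 6 h, below the 9.168 to 9.247 of later vehicle arrays and overlapping the 9.037 to 9.138 of later celastrol arrays. Vehicle replicate 2 at 6 h held the highest value of Lcn2 outside celastrol replicate 3 at 4 days, at 9.85. The mean of the thalamus list lay between 10.24 and 10.57 on vehicle arrays at 6 h and between 10.11 and 10.26 on celastrol arrays at 6 h. On later vehicle arrays it lay between 10.11 and 10.19. Whether tissue from outside the hypothalamus bears on the levels at 6 h, or on comparisons with 6 h, was not tested.

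A test of the later difference against that at 6 h passed for 2 genes (0.0142%). Cyp4f15 read 9.48, 9.64 and 9.47 with vehicle and 9.39, 9.30, 9.46 and 9.17 with celastrol at 6 h, and its later difference exceeded that at 6 h by 0.57 ± 0.082 (limma adjusted p = 0.0201). The call ended without vehicle replicate 1 or 2 at 1 day or vehicle replicate 1 at 4 days (up to 0.061). Insc read 7.40, 7.41 and 7.38 with vehicle and 7.46, 7.52, 7.44 and 7.52 with celastrol at 6 h, and its later difference was lower by 0.35 (-0.35 ± 0.057, limma adjusted p = 0.0422). That call did not hold without any 1 of 10 of the 13 later arrays (up to 0.0931), with arrays quantile normalized again (0.161), with no filter on dim genes (0.0783), with array weights (0.0522) or with a trend in the prior variance (0.155). Gjc3 (-0.40 ± 0.069, limma adjusted p = 0.0541), Fyb, an adaptor of leukocytes (0.43 ± 0.076, 0.0763), and Pax6 (-0.40 ± 0.084, 0.133) did not pass. Gjc3 passed with the arrays centred on their medians (0.0276), quantile normalized again (0.0221), with a filter at the 50th percentile (0.0247), with a trend in the prior variance (0.00749) and without celastrol replicate 1 at 4 days (0.0121). Pax6 passed without vehicle replicate 3 at 1 day (0.0112), and Fyb without celastrol replicate 2 at 4 days (0.0419). For the other genes higher or lower at the later times, a difference from 6 h was not shown.

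The arrays did not carry the pattern evenly. Over the 109 higher genes, the median excess of an array over the vehicle mean of its time lay between 0.309 and 0.364 on the 4 celastrol arrays of 1 day, and at 0.162, 0.239 and 0.412 on celastrol replicates 1, 2 and 3 at 4 days. Over the 45 lower genes it lay between -0.278 and -0.216 at 1 day and at -0.132, -0.26 and -0.306 at 4 days. These genes were chosen on the same arrays, so the sizes describe the arrays and test nothing. Without celastrol replicate 1 at 4 days the count of genes past the threshold rose from 154 to 270, and without celastrol replicate 3 it was 91. Leaving out vehicle replicate 1 or 2 at 1 day gave 71 or 72, vehicle replicate 1 at 4 days gave 77, and it was 100 and 99 without celastrol replicates 3 and 4 at 1 day. In all 13 such fits and under both rescalings 60 genes passed, 46 higher and 14 lower. Of the genes described above, these included Igfbp7, Acer2, Sgk1, Fkbp5, Nfkbia, Per1, Lcn2, Osmr, Slc2a1, Cldn5, Sox10, Gjc3, Gjb1, Pax6 and Insc. Ch25h, Lrg1 and Fas were also among the 60. Their vehicle means over all times lay below the dim level, so they were tested only through their celastrol arrays.

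**Figure D5:**
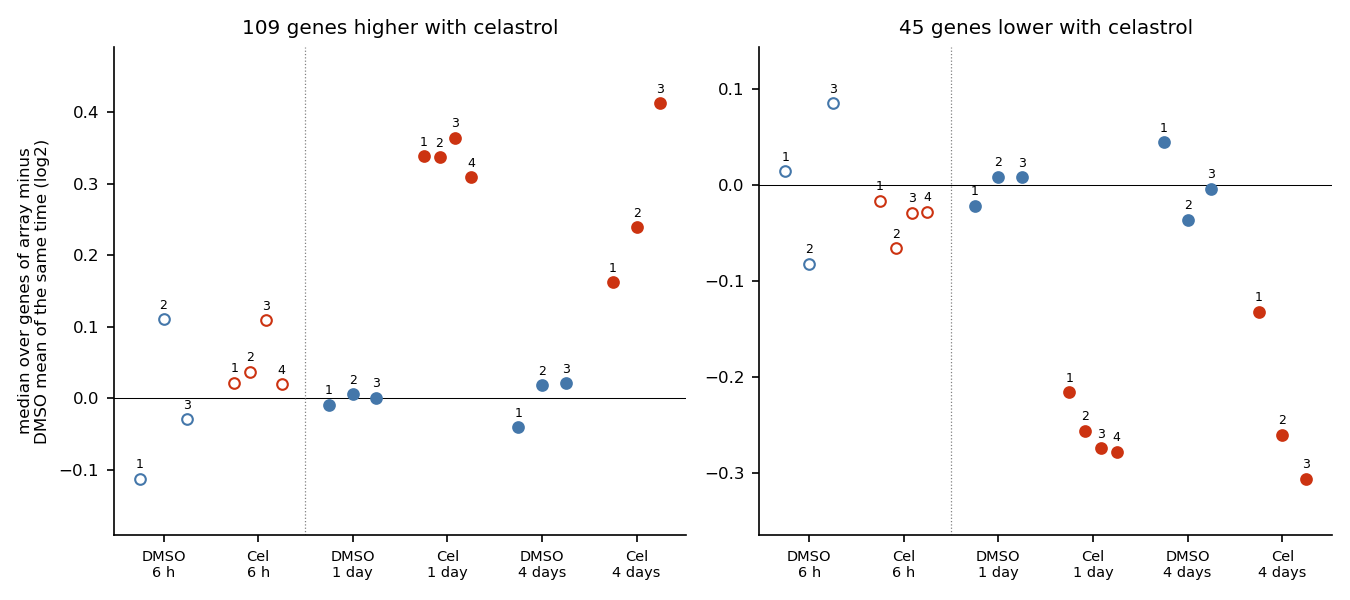
For each array, the median over the 109 higher genes (left) and the 45 lower genes (right) of its value minus the vehicle (DMSO) mean of its own time on the log2 scale, with replicate numbers beside the points and open points for 6 h. Celastrol arrays of 1 day lie close together at 0.309 to 0.364 on the left, those of 4 days spread from 0.162 to 0.412, and those of 6 h lie between 0.0195 and 0.109.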

How the data were processed

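Gene expression was measured with 20 Affymetrix Mouse Gene 1.0 ST arrays of hypothalamus, and 13 enter this comparison. The deposited table holds log2 intensities for 23492 probe sets, which the authors made with RMA per the submitters' processing notes. RMA corrects background, quantile normalizes arrays, which can compress or shift small differences shared by many genes, and summarises probes; the RMA version is not given in the sources used here. Titles number the arrays as biological replicates, and p-values measure the spread between them.

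Probe sets with exactly 1 gene symbol numbered 20228, and 20182 matched the mouse reference by Entrez ID. For each of 18704 genes the brightest probe set over 20 arrays was kept, genes below the 25th percentile of intensity (log2 7.04) were left out as dim, and 14129 were tested. Differences were fitted with limma 3.58.1 in R 4.3.3 (treatment plus time, eBayes with 10 residual and 4.77 prior degrees of freedom, two-sided, Benjamini-Hochberg over all genes, threshold 0.05). Every adjusted p in the text is from limma. Changes between times used group means of the same 13 arrays, and of all 20 for 6 h. The number of arrays limits the precision. Gene lists are described by counts and medians, with no test of a list. The procedure was tested on simulated data.

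Named are the 15 largest rises and falls past the threshold (15 of each, predicted genes and clones unnamed), up to 4 members of each of the 22 pathway lists by p (not of the 17 cell type and tissue lists), up to 5 genes per direction for each change between times, and a short fixed list; other named genes were chosen after their values were seen. The members, lists and rule were chosen with earlier results of these data known. Alternatives were other scaling, filters, probe set summaries, models, weights, priors, a replicate block, each time alone and leaving out each array. Probe sets with several symbols or none were not used. Promoter sequences are from RefSeq (GRCm38.p6).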

Additional observations from a re-analysis of the deposited data

Results flagged for a closer look

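Some readings stood apart within the 4 celastrol arrays of 1 day. Tgm2 on replicate 1 was 9.135, below the others at 9.374 to 9.389. Cyp4f15 on replicate 3 was 9.459, below the others at 9.559 to 9.573. Fn1 on replicate 2 was 11.29, above the others at 10.62 to 10.72. The gap took up 0.943, 0.875 and 0.846 of the range of the 4 arrays. The limit that marks such a gap is passed by chance in about 1 in 20 groups. It was applied in this group to every named gene past the threshold, so some such gaps would arise by chance. All 3 readings still lay above every vehicle array of the later times.

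The celastrol difference of Fabp7 changed between the later times, by 0.7364 from 1 day to 4 days, in a tested contrast. The later difference of Cyp4f15 exceeded that at 6 h by 0.5658, and that of Insc was lower than at 6 h by a change of -0.3508, both in a tested contrast. What lies behind these changes was not tested.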

How the results depend on the processing

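All 154 genes kept their direction in every setting that tested them, but counts moved. The count past the threshold was 275 (188 higher, 87 lower) with array weights, 238 (85 lower) with a trend in the prior variance, 69 (61 and 8) with 1 day arrays alone and 2 (2 and 0) with 4 day arrays alone. Lower genes numbered 70 with centred arrays, 76 after a further quantile normalization and 27 without the filter. Leaving out 1 array gave 71 to 270 genes, 48 to 164 higher and 17 to 106 lower; the arrays behind a change of over 1.5 times are named in the report, beside those that moved the lower count alone (27 without vehicle replicate 3 and 24 without celastrol replicate 2, both at 4 days). The causes were not tested. Of the 154 genes, 139 passed again with centred arrays and 142 with arrays quantile normalized again.

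Replicate numbers gave no sign of pairing the arrays: deviations of same-numbered arrays correlated at -0.288 to -0.00627. In groups this small, such correlations cannot exclude a pairing. With the replicate number as a block, 78 genes passed, 62 higher and 16 lower, with fewer degrees of freedom.

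The change between 1 day and 4 days held 0 to 1 gene when 1 array was left out. The change against 6 h held 0 to 3 genes without 1 array, 1 without the filter and 1 with array weights. Hmox1, near 0, turned sign with centred arrays (-0.00565), array weights (-0.00765) and without 1 array in 6 of 13 fits (-0.0179 to -0.000834; range of all 13, -0.0179 to 0.0368).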
